A study of Mus musculus with 12 samples.

Results

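The genes of cyclic AMP signalling were examined in the mouse pituitary after vitamin D deficiency at 2 different stages of life. The members are every non-control probe whose gene name in the scanner files is an adenylyl cyclase (Adcy), a cyclic nucleotide phosphodiesterase (Pde), a subunit of protein kinase A (PKA), Creb1, Crem, Atf1 or Gnas. This gave 44 genes with 89 probes, of 30121 genes and unnamed transcripts with 39429 probes on the array. They were 10 cyclases, 24 phosphodiesterases, 6 PKA subunits, 3 transcription factors and Gnas. Probes were filtered on brightness, keeping those with a signal that the scanner software judged well above background in 4 or more of the 12 channels, and 38 of the 44 genes had such a probe. The 6 genes without one were Adcy10, the sperm-type soluble cyclase, Pde3a, and Pde6a, Pde6b, Pde6c and Pde6h of the photoreceptors. The families were selected on gene names, and the cyclase Adcy4 was chosen by its measured difference between the deficient groups in these samples. Its levels and differences are therefore a description, and its test supports nothing.

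All 12 animals were female C57BL/6J mice aged 2 months, labelled as biological replicates, and total RNA of the pituitary was measured on Agilent 2-colour arrays. The control group (n = 4) ate a normal diet, and the vitamin D-deficient diet was given only early in life (early life group, n = 4) or only around puberty (peripubertal group, n = 4). Each of the 6 arrays held 2 animals of the same group, 1 in the Cy3 channel (animals 1 and 3) and 1 in the Cy5 channel (animals 2 and 4), so a difference between dyes is also one between animals. Slide 1 carried the control arrays and slide 2 those of both deficient groups. For the comparisons with control, an effect of the slide and one of the diet cannot be told apart. The names of the deficient groups follow the scanner files. The 8 columns of the deficient groups in the deposited value table all matched scanned channels filed under the other deficient group, with 99% of spots within 1e-05 log2 after a constant shift. If the table's names were right, every difference between early life and peripubertal would change sign, and the differences of the deficient groups from control would change places. Its 4 control columns matched no scanned channel.

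Values are log2 intensities after background correction and scaling, and 1 unit is a doubling. The level of 1 probe cannot be set against that of another, so genes are compared only through their differences between groups. The share of spots well above background was 50.6% to 67.2% per channel. Spots that the software marked as outliers made up 6.54% and 7.34% of the early life arrays, 3.85% and 5.08% of the peripubertal arrays and 1.68% and 1.90% of the control arrays. Such a spot was left out in both channels. As a result 26 of the 38 genes had values in all 12 samples, 10 lacked at least 1 early life array, 5 lacked a peripubertal array and none lacked a control array. No member probe was saturated in any channel.

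Cyclic AMP is made from ATP by adenylyl cyclases, most of which sit in the plasma membrane and are switched on by the stimulatory G protein that Gnas encodes. It releases the catalytic subunits of PKA from their regulatory subunits, PKA phosphorylates CREB-family transcription factors, and phosphodiesterases end the signal by hydrolysing the nucleotide. In the anterior pituitary this route carries the signals of hypothalamic hormones such as GHRH and CRH and is lowered by dopamine and somatostatin.

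The probe sequences below are shown because some results turn on 1 oligonucleotide or on probes of 1 gene that went different ways. All are 60 bases long, written 5′ to 3′ in lower case as the scanner files give them, with positions in mouse build mm9. No annotation of that build was used here, so exon or UTR is not given. Adcy4 has a single probe, at chr14:56388004-56388063 on the minus strand (transcript NM_080435). The kept Prkar1a probes are A_55_P2020786, at chr11:109529011-109529070 on the plus strand, and A_51_P294095, at chr11:109530521-109530580 on the plus strand, both of transcript NM_021880. The Gnas probes lie on the plus strand of chromosome 2, at chr2:174122337-174122396 (A_55_P2081318), chr2:174125482-174125541 (A_52_P190394), chr2:174163501-174163560 (A_55_P2081323) and chr2:174171933-174171992 (A_55_P2081313). For Atf1, the file places A_55_P2159994 at chrX:51185510-51185569 on the minus strand and A_52_P228079 at chr15:100090547-100090606 on the plus strand, although both are annotated with transcript NM_007497.
Adcy4: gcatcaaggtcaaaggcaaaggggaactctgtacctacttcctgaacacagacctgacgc
Prkar1a A_55_P2020786: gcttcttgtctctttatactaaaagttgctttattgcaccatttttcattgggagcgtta
Prkar1a A_51_P294095: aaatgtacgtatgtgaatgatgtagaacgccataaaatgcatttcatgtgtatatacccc
Gnas A_55_P2081318: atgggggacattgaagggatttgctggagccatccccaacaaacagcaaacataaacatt
Gnas A_52_P190394: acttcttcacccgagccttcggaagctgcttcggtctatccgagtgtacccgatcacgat
Gnas A_55_P2081323: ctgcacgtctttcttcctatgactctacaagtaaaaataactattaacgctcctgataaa
Gnas A_55_P2081313: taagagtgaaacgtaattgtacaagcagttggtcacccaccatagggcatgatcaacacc
Atf1 A_55_P2159994: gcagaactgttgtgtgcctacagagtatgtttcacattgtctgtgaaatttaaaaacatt
Atf1 A_52_P228079: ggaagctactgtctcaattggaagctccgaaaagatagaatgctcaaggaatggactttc

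Across the 3 diet comparisons, 1 member passed the threshold of an adjusted p of 0.05 in limma's model, and it was Adcy4, lower in the early life than in the peripubertal group. In early life against control, 0 of 36 testable members passed, where 0.0979% of all genes did (0.0544% higher and 0.0435% lower). In peripubertal against control, 0 of 38 passed, where 0.0213% of all genes did, all of them lower. In early life against peripubertal 1 of 36 passed, where 0.132% of all genes did (0.0603% higher and 0.0713% lower), and this count is a gene chosen for its values. At an unadjusted p under 0.05 the counts were 6 of 36 members against 16.2% of all genes, 3 of 38 against 4.69%, and 11 of 36 against 19.4%, in the same order. Against control the shares of members, 16.7% and 7.89%, were near those of all genes. Between the deficient groups the members' share was 30.6%.

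The groups did not overlap in any sample for 4 of 36 members in early life against control, with 15.1% of all genes doing so. These were Crem, Pde1c and Prkar2b, higher in early life as were 7.96% of all genes, and Prkar1a, lower as were 7.15%. For peripubertal against control they did not overlap for 4 of 38 members, with 9.24% of all genes, namely Adcy4, higher as were 3.71%, and Pde1a, Pde5a and Pde11a, lower as were 5.53%. For early life against peripubertal they did not overlap for 11 of 36 members, with 22.4% of all genes. Crem, Pde1a, Pde1c, Pde8b, Pde10a, Prkacb and Prkar2b were the higher ones in early life, beside 12.4% of all genes, and Adcy4, Adcy5, Pde7b and Prkar1a the lower, beside 9.95%. Genes that lack an array have fewer samples to overlap, which applies to Adcy5, Crem, Pde10a, Prkacb and Prkar1a.

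**Figure D1:**
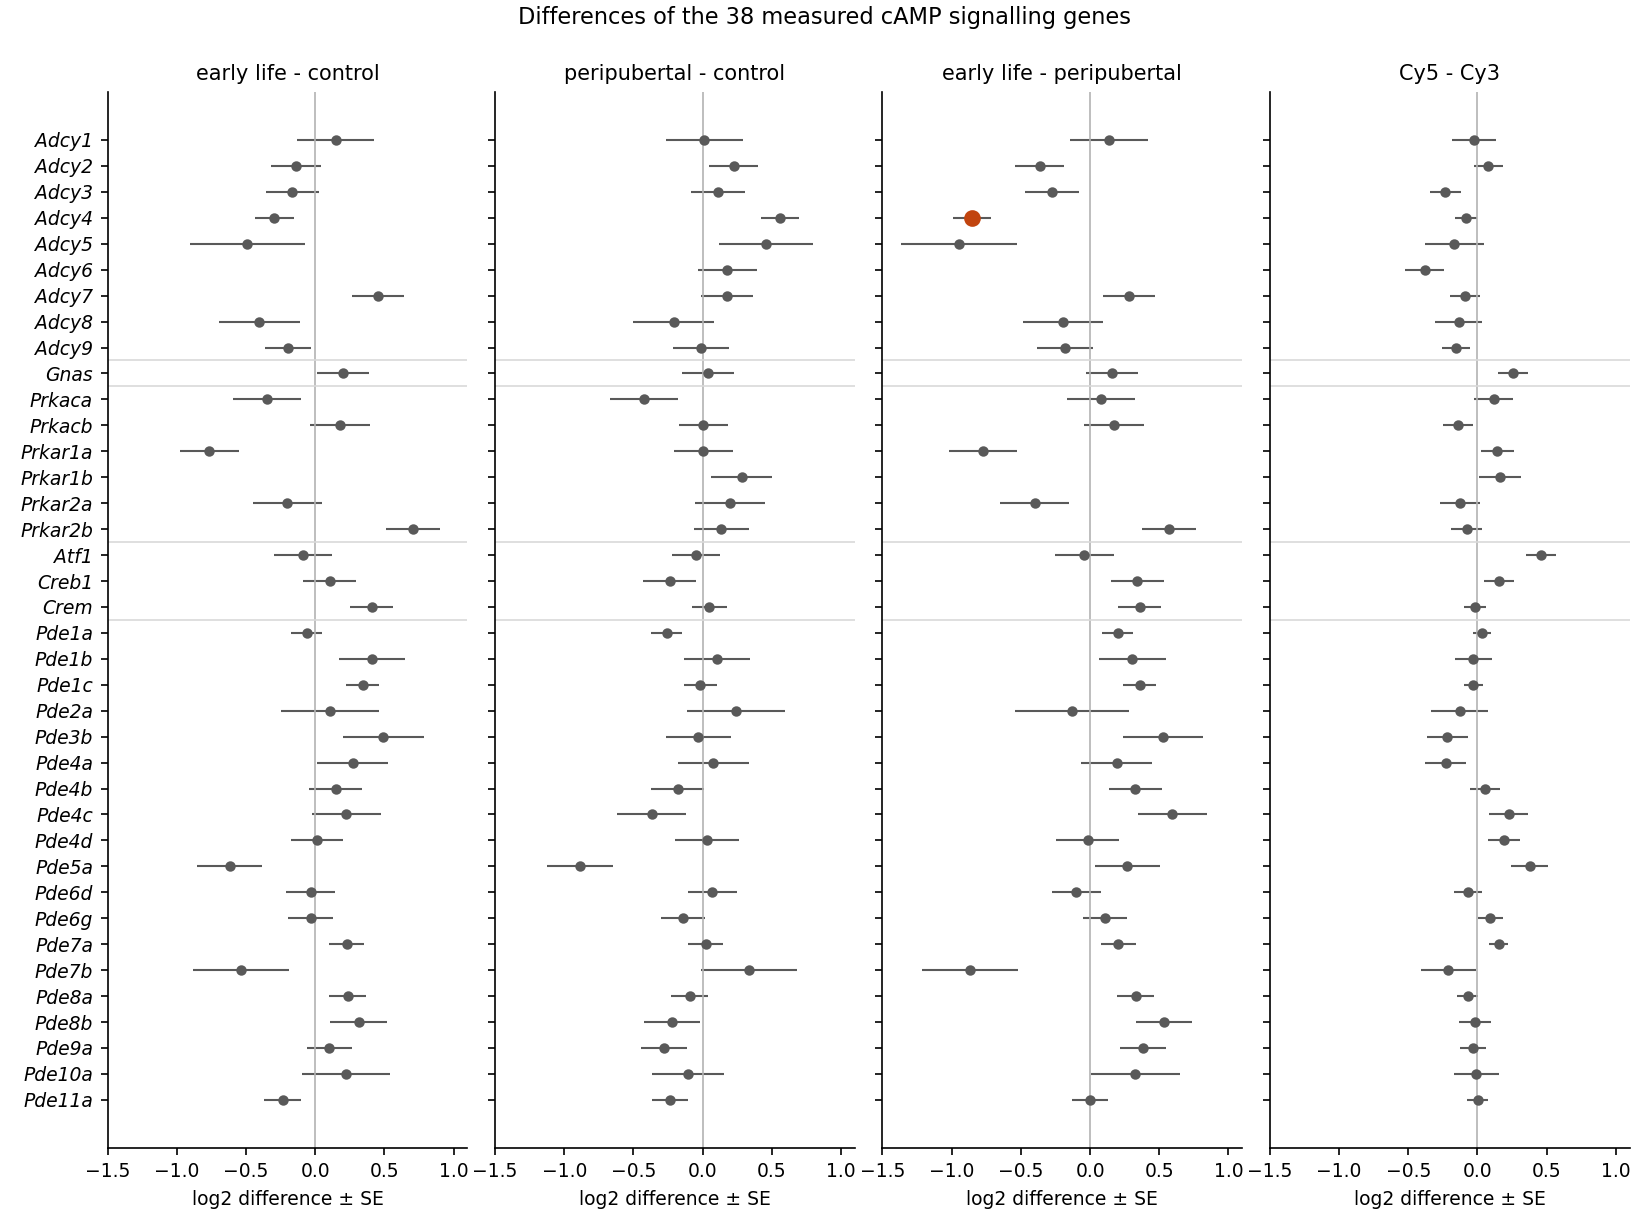
Log2 difference (point) with its standard error (bar) for the 38 measured genes in the 3 diet comparisons and between the dyes, ordered by role with grey lines between the families. Missing points are genes with no value in a group, and the orange point marks Adcy4 in early life against peripubertal, the only member with an adjusted p under 0.05.

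Adcy4, a membrane cyclase that calcium does not stimulate, was lowest in early life, intermediate in control and highest in peripubertal animals. Its log2 intensity in the 4 controls was 8.06, 8.03, 7.91 and 7.86. In early life animals it was 7.91, 7.48, 7.68 and 7.61, and in peripubertal animals 8.64, 8.59, 8.36 and 8.50. The lowest peripubertal animal stood above the highest control and the highest early life animal, whereas the early life and control ranges overlapped at early life animal 1. The difference between early life and peripubertal was -0.85 ± 0.14 (SE, n = 4 and 4), a 1.81-fold lower intensity. The peripubertal group was above control by 0.56 ± 0.14, or 1.47-fold, and the early life group differed from control by -0.30 ± 0.14. The signal was dim, well above background in 11 of 12 channels and not in 1 early life channel. Dim spots around the Adcy4 spot differed by -0.01 between the deficient groups. The difference between Cy5 and Cy3 was -0.08 ± 0.08, and within each array both animals lay on the same side of the mean of all 12 samples in the early life and peripubertal groups.

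Adcy4 passed the threshold in early life against peripubertal in 10 of 31 other settings of the analysis, and its sign was the same in all 31 under the names of the scanner files, with a difference from -1.32 to -0.76. The value table was among them, with its columns renamed to the scanned channels they match, and under its own names its sign is the opposite. Among them, it did not pass with the software's processed signals, quantile scaling, median centring, outlier marks kept, array means, no filter on dim probes or only the 2 groups compared, nor in the deposited value table. Leaving out control animal 1, 2 or 4, early life animal 2 or 4, or peripubertal animal 1, 2 or 4 also ended the call, while the difference then lay between -0.85 and -0.78. The largest adjusted p over all settings was 0.377, with median centring. Leaving out control samples, averaging its single probe, dropping the filter or changing the model could not alter the difference, which stayed at -0.85. Adcy4 was also chosen for this difference, so its shared sign over the settings is a description only.

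Seen against the other cyclases, Adcy4 differed in size from those measured in all 12 samples. The other 5 cyclases with values in all 12 samples (Adcy1, Adcy2, Adcy3, Adcy7 and Adcy8) had a mean deviation from their own means of -0.01 in control, -0.03 in early life and 0.05 in peripubertal animals. Adcy4 minus that mean was -0.16 to 0.04 in controls, -0.53 to -0.24 in early life and 0.32 to 0.54 in peripubertal animals, so the 3 groups kept apart. These values describe how a gene chosen for its pattern stands to its family. They depend on the 5 cyclases used, of which Adcy3 and Adcy8 were well above background in only 0 and 1 early life channels. Adcy5 is not among the 5, and its probes differed by -0.95 to -0.75 between the deficient groups.

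Of the other cyclases, Adcy5, a calcium-inhibited form, had the difference nearest in size to that of Adcy4. Its values were 12.61, 11.96, 11.38 and 12.12 in controls, 11.79 and 11.28 in early life animals 1 and 2, and 12.98, 12.68, 12.19 and 12.07 in peripubertal animals. Both early life values lay below all 4 peripubertal values but within the range of the controls. The difference between early life and peripubertal was -0.95 ± 0.42 (adjusted p = 0.255, limma). A second probe, measured in all 12 samples, gave -0.75 ± 0.29, and its 3 kept probes ranged from -0.58 to -0.32 in early life against control. Adcy5 thus had the same order of groups as Adcy4 on these probes, with an error too large to pass the test.

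Adcy7, a form abundant in blood and immune cells, went the other way. It measured 7.91, 8.24, 8.10 and 7.81 in controls, 8.85, 8.55, 8.16 and 8.33 in early life and 8.26, 7.99, 8.35 and 8.16 in peripubertal animals. The groups overlapped, and early life minus control was 0.46 ± 0.19 (adjusted p = 0.275, limma). With the array of early life animals 3 and 4 left out this became 0.68, with an adjusted p of 0.0365. In that setting 4 of 33 members and 1925 of 16894 genes passed.

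None of the remaining cyclases passed the test. Adcy2, a calcium-independent form, differed by -0.36 ± 0.18 between early life and peripubertal (adjusted p = 0.287, limma), and its groups overlapped. Adcy1, a calmodulin-stimulated form, differed by 0.14 ± 0.28 and had an early life range of 7.10 to 8.21 that covered both other groups. Adcy9, a broadly expressed form, differed by -0.18 ± 0.20. Adcy8, another calmodulin-stimulated form, differed by -0.20 ± 0.29 and was dim, well above background in 3 control, 1 early life and 3 peripubertal channels. Adcy3, known from olfactory neurons and primary cilia, was not well above background in any early life channel. The ratio of its group means is therefore given as a bound, 1.06-fold for control and 1.15-fold for peripubertal over early life. For such a bound each early life channel was raised to the lowest signal of a probe well above background where it lay under that signal. The bound makes no allowance for the spread between animals. The Adcy3 groups overlapped, and early life differed by -0.16 ± 0.19 from control and -0.27 ± 0.19 from peripubertal. Adcy6 lost its early life spots to outlier marks, and its peripubertal minus control difference was 0.18 ± 0.22.

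Of the 7 cyclases other than Adcy4 with values in both deficient groups, 5 had a negative difference between early life and peripubertal, with a median of -0.20, beside 8409 of 18243 genes negative and a median of 0.03 over all genes. The split of 5 negative to 2 positive was the same under the other background corrections and scalings. Against control, 5 of these 7 were negative in early life (median -0.16), but 4 with median centring and 3 with outlier marks left out before scaling. Of 8 in peripubertal animals 6 were positive (median 0.14), but 5 with median centring or quantile scaling. Over all genes 8550 of 18388 were negative in early life and 9656 of 18772 positive in peripubertal animals against control.

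Adcy4 is known from blood vessel endothelium, and markers of non-endocrine cells were examined in the same samples. In bulk tissue, fewer cells of a type and less RNA per cell cannot be told apart. The endothelial markers had 14 of 15 genes testable between early life and peripubertal, 10 of them lower in early life, with a median difference of -0.40, and none passed the test. With outlier marks left out before scaling, or an offset of 16 in the background correction, Sox18 passed. Those settings passed 315 of 18248 and 56 of 18243 genes. The mean deviation of 14 endothelial markers was -0.12 to 0.35 in controls, -0.53 to -0.02 in early life and 0.01 to 0.35 in peripubertal animals. Such a score uses only genes with values in all 12 samples. These were 10 for the macrophage, 5 for the erythroid, 9 for the pituicyte and 6 for the Schwann and myelin list. Sox18, an endothelial transcription factor, differed most, by -1.98 (adjusted p = 0.0531, limma), while Cldn5, Cdh5, Sox17 and Kdr had positive differences. Macrophage markers were lower in early life than in peripubertal animals for 11 of 12 genes, with a median of -0.63, and the score ranged from -0.46 to 0.14 in early life, -0.26 to 0.71 in peripubertal and -0.35 to 0.45 in control animals. Erythroid markers were lower for 6 of 6 genes, with a median of -1.87, and the score was -1.29 to -0.15 in early life, 0.23 to 1.82 in peripubertal and -0.90 to 1.08 in control animals. Posterior lobe pituicyte markers were higher in early life than in peripubertal animals for 8 of 9 genes, with a median of 0.27, and the score was -0.32 to -0.09 in control, -0.21 to 0.58 in early life and -0.23 to 0.28 in peripubertal animals. Schwann and myelin markers were higher for 7 of 8 genes, with a median of 0.39, and the score was -0.38 to 0.82 in control, -0.30 to 1.19 in early life and -0.33 to 0.28 in peripubertal animals. Pericyte and smooth muscle markers were lower in early life than in peripubertal animals for 5 of 7 genes (median -0.13). Their score (6 genes) was -0.34 to 0.15 in control, -0.30 to 0.36 in early life and -0.21 to 0.14 in peripubertal animals. Folliculostellate and stem markers were higher for 5 of 9 genes (median 0.02). Their score (6 genes) was -0.17 to -0.02 in control, -0.11 to 0.51 in early life and -0.33 to 0.18 in peripubertal animals. No marker of these lists passed the test. The part of these cells in the Adcy4 values, and in the phosphodiesterase and induced-gene values given further on, was not tested.

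**Figure D2:**
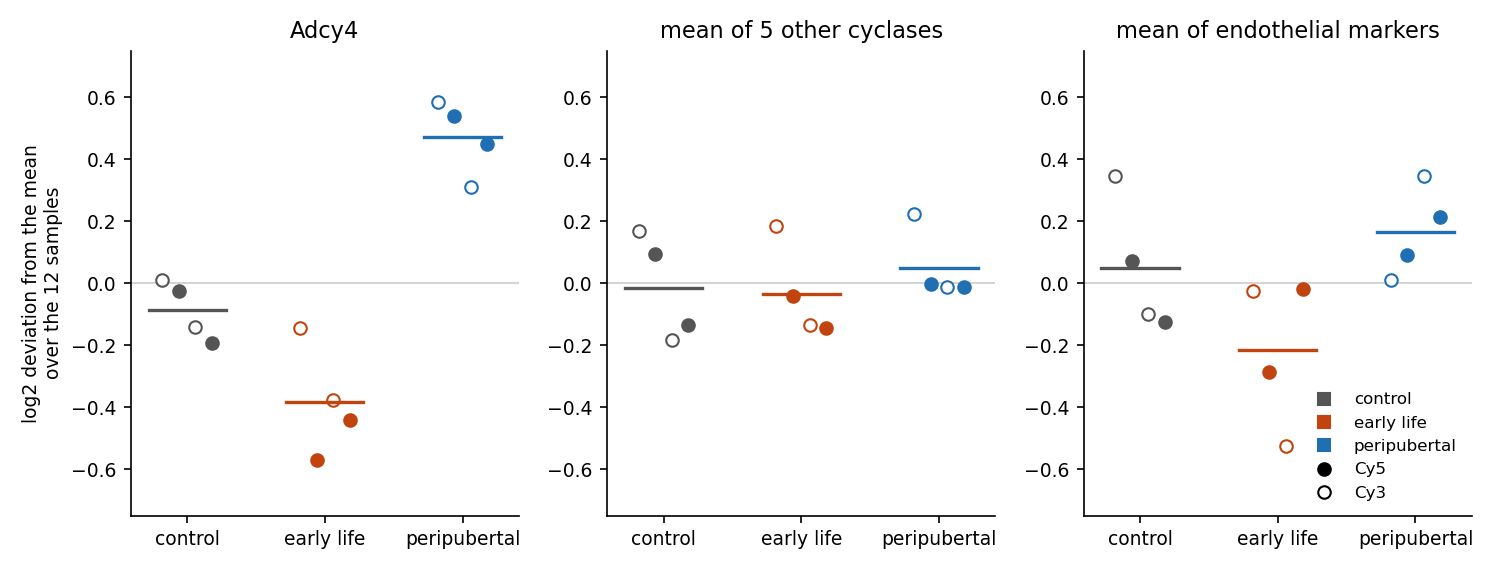
Deviation of Adcy4 (left), of the mean of 5 other cyclases (middle) and of the mean of 14 endothelial markers (right) from their means over the 12 animals, on the log2 scale, by diet group and dye, with group means as bars. Adcy4 separates the peripubertal animals from all others, the 5 other cyclases overlap in all groups, and the endothelial markers are below 0 in all 4 early life and above 0 in all 4 peripubertal animals.

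Gnas encodes the stimulatory G protein alpha subunit and, from other first exons of the same imprinted locus, further transcripts. The brightest probe, A_55_P2081313, measured 16.99 to 17.66 in controls, 17.30 to 17.75 in early life and 17.18 to 17.64 in peripubertal animals, and early life minus peripubertal was 0.16 ± 0.19 (adjusted p = 0.665, limma). The 3 probes further upstream, whose sequences are given above, had larger differences, of 0.75 ± 0.40 (A_55_P2081318), 0.44 ± 0.22 (A_52_P190394) and 0.69 ± 0.49 (A_55_P2081323). None passed the test. In peripubertal against control the upstream probes had -0.46, -0.40 and -0.26 and the brightest probe 0.04. At A_52_P190394 the peripubertal animals measured 7.72, 7.64, 7.76 and 7.66, all below the controls at 7.92, 7.93, 8.50 and 8.03. The 4 probes therefore had 1 sign between the deficient groups and opposite signs for peripubertal against control.

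Among the PKA subunits, Prkar2b and Prkar1a had the largest differences and opposite directions. Prkar2b, the type II beta regulatory subunit common in neural and endocrine tissue, measured 11.22, 11.14, 11.29 and 10.77 in controls, 12.16, 11.90, 11.44 and 11.74 in early life and 11.30, 11.38, 11.14 and 11.14 in peripubertal animals. All 4 early life animals lay above all 8 others. Early life exceeded control by 0.71 ± 0.20 (adjusted p = 0.166, limma) and peripubertal by 0.57 ± 0.20 (adjusted p = 0.169), so neither passed. Its other kept probes gave 0.25 and 0.49 against control, and all 3 probes were positive in both comparisons. Without early life animal 3, the lowest of its group, the differences were 0.84 and 0.71, with adjusted p of 0.0436 and 0.0439, and without that animal's array they were 0.93 and 0.79. Leaving out animal 3 passed 280 of 18375 and 751 of 18234 genes in these comparisons.

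Prkar1a, the type I alpha regulatory subunit, gave opposite answers on its 2 kept probes. The brighter, A_55_P2020786, measured 14.06, 14.19, 14.33 and 14.38 in controls, 13.22 and 13.72 in early life animals 1 and 2, and 14.29 and 14.20 in peripubertal animals 1 and 2. Its early life minus control difference was -0.77 ± 0.21 (adjusted p = 0.193, limma). The other, A_51_P294095, had values in early life animals 3 and 4, at 13.35 and 13.45, and in controls 3 and 4, at 13.04 and 13.07, and its difference was 0.34 ± 0.20. The probes thus had no early life animal in common. Leaving out the array of early life animals 3 and 4 removed no value of the brighter probe, so its difference could not change. Its adjusted p became 0.0398 there, through the error and adjustment shared with other genes, and 1925 of 16894 genes passed. With marked spots kept, so that both probes covered all 12 samples, the differences were -0.43 and 0.29, again of opposite sign.

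The catalytic subunits and the other regulatory subunits had smaller differences on their brightest probes. Prkaca, the catalytic alpha subunit, differed by -0.35 ± 0.25 in early life and -0.43 ± 0.25 in peripubertal against control. Prkacb, the catalytic beta subunit, differed by 0.18 ± 0.22 in early life against control, from early life animals 3 and 4 alone, whose values of 14.13 and 14.20 lay above the peripubertal range of 13.84 to 14.05. Its second probe, measured in all 12 samples, was higher in early life by 0.50 ± 0.16 over control and 0.55 ± 0.16 over peripubertal, without passing the test (adjusted p = 0.201 and 0.133 among all probes, limma). Prkar2a, the type II alpha regulatory subunit, split by array within the early life group, at 8.41 and 8.41 in animals 1 and 2 and at 9.45 and 9.05 in animals 3 and 4. Its early life minus peripubertal difference was -0.40 ± 0.25, and -0.82 with an adjusted p of 0.0281 when the array of early life animals 3 and 4 was left out. In that setting 3 of 33 members and 2377 of 16780 genes passed. Prkar1b, the type I beta regulatory subunit, had no early life value on its brightest probe, and its second probe differed by -0.46 ± 0.21 from control and -0.59 ± 0.21 from peripubertal.

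**Figure D3:**
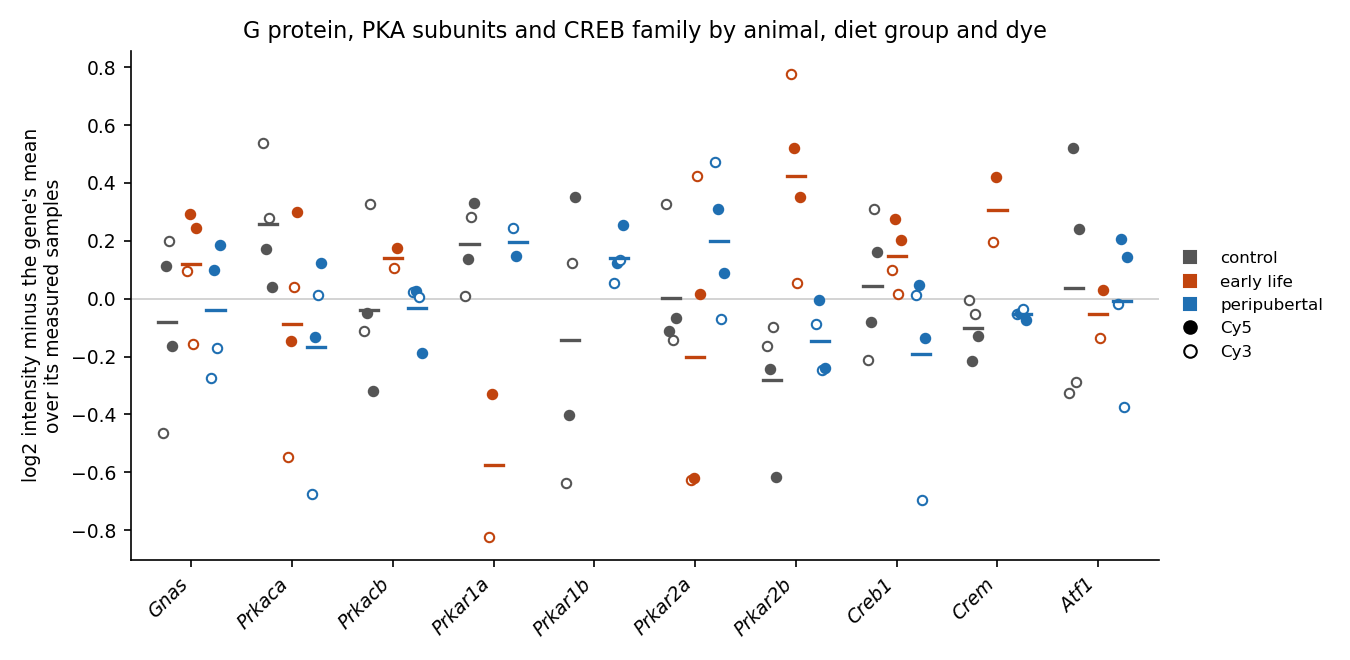
Log2 intensity of Gnas, the PKA subunits and the CREB-family factors in each animal, as the deviation from the gene's mean over its measured samples, by diet group (colour) and dye (filled for Cy5, open for Cy3), with group means as bars. The 4 early life animals of Prkar2b lie above the other 8, Prkar2a splits into pairs within early life, and the Cy5 animals of Atf1 lie above the Cy3 animals.

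Of the transcription factors, Crem, which makes both activators and the inducible repressor ICER of cyclic AMP-responsive genes, was the one with groups that did not overlap. It measured 11.85, 11.64, 11.80 and 11.73 in controls, 12.05 and 12.28 in early life animals 1 and 2, and 11.81, 11.81, 11.82 and 11.79 in peripubertal animals. Early life minus control was 0.41 ± 0.16 (adjusted p = 0.258, limma) and early life minus peripubertal 0.36 ± 0.16 (adjusted p = 0.247). Its second kept probe had early life values in animals 3 and 4 only, at 10.87 and 10.84 against 9.98 to 10.59 in controls, and differed by 0.52 ± 0.21. The probes of Crem therefore had the same sign on different early life arrays, whereas those of Prkar1a did not. With marked spots kept, the differences were smaller, at 0.29 and 0.18.

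Creb1, the founding CREB factor, differed by 0.10 ± 0.19 in early life against control on its brightest probe and by -0.37 on a second, dimmer one. Atf1, a close relative of CREB, differed by -0.09 ± 0.21 and -0.05 ± 0.17 from control in early life and peripubertal animals on its brightest probe, A_55_P2159994. Its other kept probe, A_52_P228079, differed by -0.39 and 0.05 in these comparisons. Between early life and peripubertal the 2 probes had -0.04 and -0.44.

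Between the dyes, 0 of 38 members passed the threshold, where 0.0525% of all genes did, and 4 had an unadjusted p under 0.05 in limma's model, where 10.3% of all genes did. The channels did not overlap for 2 of 38 members, with 1.24% of all genes. Atf1 measured 9.91 to 10.40 in the 5 Cy5 channels and 9.50 to 9.86 in the 5 Cy3 channels that it had, a Cy5 minus Cy3 difference of 0.46 ± 0.11 (adjusted p = 0.211). This was the probe A_55_P2159994 that the file places on chromosome X, and the probe placed on chromosome 15 had a difference of -0.10 ± 0.16. Adcy6 was lower in Cy5 by 0.38, in the 3 arrays that it had. The differences of the 9 measured cyclases between the dyes were negative for 8, with a median of -0.14. Over all genes 8947 of 19054 were negative, with a median of 0.01. Every diet group held both dyes equally, so a difference between dyes, which is also one between animals, enters all groups.

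The phosphodiesterases were 19 genes with a kept probe, and none passed the threshold in a diet comparison. Between early life and peripubertal, 15 of 19 were positive with a median of 0.27, beside 9834 of 18243 genes and a median of 0.03 over all genes. The count was 15 to 18 under the other background corrections and scalings. In peripubertal against control 12 of 19 were negative with a median of -0.09, but 9 were with median centring, which moved the median of all genes to 0.14, and 8 with outlier marks left out before scaling, which moved it to 0.13. The range of differences was -0.62 to 0.49 in early life and -0.89 to 0.33 in peripubertal against control, and -0.87 to 0.59 between the deficient groups.

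Pde5a, which hydrolyses cyclic GMP and is the target of sildenafil, was lower in both deficient groups than in control without passing the test. It measured 8.87, 8.99, 8.42 and 8.83 in controls, 7.77, 8.17, 7.83 and 8.89 in early life and 7.71, 8.14, 7.93 and 7.79 in peripubertal animals. All 4 peripubertal animals lay below all controls, and early life animal 4 lay among the controls. The differences were -0.89 ± 0.24 (adjusted p = 0.576, limma) in peripubertal and -0.62 ± 0.24 (adjusted p = 0.254) in early life. These share the same 4 control animals and the same slide. Leaving out the array of early life animals 3 and 4 moved the early life difference to -0.81, with an adjusted p of 0.025. In that setting 1925 of 16894 genes passed. The probe also had a Cy5 minus Cy3 difference of 0.38 ± 0.14. It was well above background in 3 of 4 early life channels.

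Pde1a, Pde1b and Pde1c are the calcium-calmodulin-activated enzymes. Pde1c measured 7.28, 7.39, 7.58 and 7.38 in controls, 7.83, 7.79, 7.62 and 7.75 in early life and 7.42, 7.40, 7.45 and 7.29 in peripubertal animals. The early life animals were above all others, by 0.34 ± 0.12 over control (adjusted p = 0.228, limma) and 0.36 ± 0.12 over peripubertal (adjusted p = 0.163). The second Pde1c probe gave 0.04 and 0.14. On the first probe the signal was dim, well above background in 3 of 4 early life channels. Pde1a was lower in all 4 peripubertal animals (10.50 to 10.65) than in the controls (10.76 to 10.93). Its difference was -0.26 ± 0.11 with an adjusted p of 1. Pde1b differed by 0.41 ± 0.24 in early life against control, and early life animal 1, at 12.29, was its highest.

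The cyclic AMP-specific Pde8a and Pde8b and the cyclic GMP-specific Pde9a had positive differences between early life and peripubertal, of 0.33 ± 0.13, 0.53 ± 0.21 and 0.38 ± 0.16 (adjusted p = 0.218, 0.201 and 0.235, limma). Dim spots around that of Pde8b differed by 0.30 in the same direction, and the part of this in the Pde8b value was not tested. A second probe of Pde8a had the opposite sign, -0.30 ± 0.21. Pde4c, of the cyclic AMP-specific family that rolipram inhibits, measured 15.70, 16.10, 15.39 and 16.22 in early life and 15.11, 15.53, 15.04 and 15.35 in peripubertal animals, which overlapped, with a difference of 0.59 ± 0.25 (adjusted p = 0.228). In peripubertal against control, Pde4c, Pde8b and Pde9a had differences of -0.37, -0.22 and -0.28, each with an adjusted p of 1, and Pde8a had 0.24 in early life against control.

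Pde7b, another cyclic AMP-specific enzyme, was the one with a large negative difference between the deficient groups. It measured 9.22, 8.46, 8.38 and 9.07 in controls, 8.37, 8.16, 8.84 and 7.61 in early life and 9.24, 9.26, 8.86 and 9.09 in peripubertal animals. The deficient groups did not overlap and early life animal 3, at 8.84, lay just under the lowest peripubertal animal, at 8.86. The difference was -0.87 ± 0.35 (adjusted p = 0.211, limma). A second, dimmer probe gave -0.16. Pde7a, of the same family, differed by 0.23 ± 0.13 from control in early life, and Pde11a, which hydrolyses both nucleotides, by -0.23 ± 0.13 in early life and -0.23 ± 0.13 in peripubertal against control.

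Probes of 1 gene were compared where more than 1 passed the filter, as for 17 of the 38 genes. Of the 16 with at least 2 probes measured in both groups, 6 had differences of opposite sign in early life against control and 6 between early life and peripubertal. In peripubertal against control 8 of 17 did. Creb1, Pde4a, Pde8a, Pde10a and Prkar1a were among those in the first comparison and between the deficient groups. Pde10a, named after its values were seen, is a striatal enzyme that hydrolyses both nucleotides and differed between the deficient groups by 0.33 ± 0.32 on its brightest probe and -0.33 ± 0.23 on the other. Adcy4 and the other 20 genes with 1 kept probe have no such check.

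**Figure D4:**
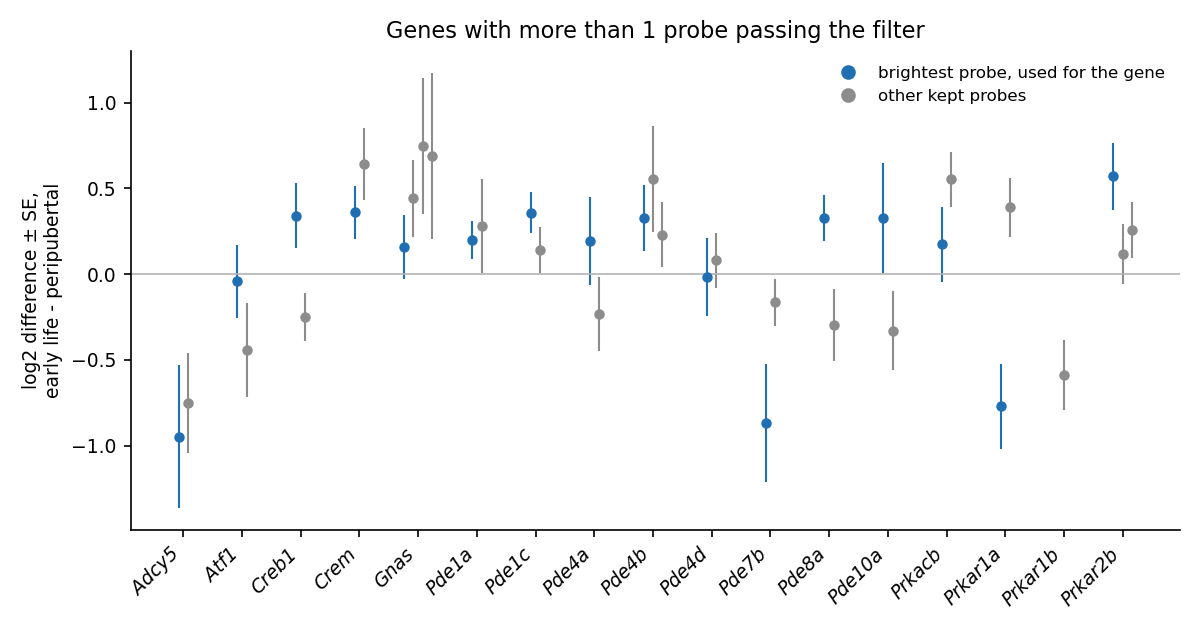
Log2 difference between early life and peripubertal with its standard error for each kept probe of the 17 genes with more than 1, the brightest probe in blue and the others in grey. The Gnas, Crem and Prkar2b probes are all above 0, and the Prkar1a, Pde8a, Pde10a, Pde4a, Pde4d and Creb1 probes lie on both sides of it.

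The rest of the pathway was read from lists of receptors, G proteins, anchoring proteins, CREB partners and cyclic AMP-induced genes. The lists were made with earlier results known, and no gene of them passed the threshold in a diet comparison, where 18, 4 and 24 of all genes did. Of 14 measured receptors that raise cyclic AMP, 9 were negative in early life against control, with a median of -0.10. With outlier marks left out before scaling 4 were. Over all genes as processed here 8550 of 18388 were negative. Ptger2, a prostaglandin E2 receptor, measured 7.16, 7.98, 7.40 and 7.05 in early life and 8.56, 8.64, 8.33 and 8.23 in peripubertal animals. These did not overlap, and the difference was -1.04 ± 0.25 (adjusted p = 0.102, limma). Early life animals 1 and 4 lay below 7.31, the early life mean of Adcy3, which was not well above background there. Ghrhr, the GHRH receptor of growth hormone cells, was 0.79 ± 0.22 above control in peripubertal animals, with 2 control animals measured (adjusted p = 0.773). Of 14 measured receptors that lower cyclic AMP, 7 were positive and 7 negative between the deficient groups, and the dopamine receptor Drd4 and the somatostatin receptor Sstr1 had differences of 0.35 ± 0.14 and 1.03 ± 0.40.

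Among 18 testable G protein subunits, 10 were negative between early life and peripubertal, but 7 with outlier marks left out before scaling. Gnaz, an inhibitory alpha subunit, differed by 0.47 ± 0.11 and Gnb4, a beta subunit, by -0.73 ± 0.25 (adjusted p = 0.109 and 0.169, limma). Of 18 PKA anchors and inhibitors and Epac-pathway genes, 12 were positive in early life against control, with a median of 0.15. The count was 11 to 15 under the other background corrections and scalings. Over all genes 9838 of 18388 were positive, with a median of 0.03. Akap5, an anchoring protein that holds PKA at the membrane, measured 6.97, 6.71, 7.12 and 6.93 in controls and 7.67, 7.82, 7.37 and 7.65 in early life animals. These did not overlap, and the difference was 0.69 ± 0.17 (adjusted p = 0.149). The signal was dim, and the Akap5 controls all lay below 7.31, the early life mean of Adcy3. Adcy3 was not well above background in that group, so the size of the Akap5 difference is uncertain. Rap1b, a small GTPase that Epac activates, differed by 0.56 ± 0.14 between the deficient groups (adjusted p = 0.111).

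Creb5, a CREB-related factor, came nearest to the threshold in these lists. It measured 15.01, 15.34, 15.20 and 15.30 in controls, 13.90, 14.44, 14.15 and 14.80 in early life and 14.49, 14.80, 14.68 and 14.82 in peripubertal animals. Both deficient groups lay below all controls, by -0.89 ± 0.16 for early life (adjusted p = 0.0631, limma). Creb3, a membrane-bound relative, differed by -0.996 ± 0.206 in the same comparison (adjusted p = 0.13). Of the 16 genes in that list 9 were positive and 7 negative, with a median of 0.13. With median centring 11 were positive, and with outlier marks left out before scaling 12 were, 5 genes then passing as higher and Creb5 as lower. That setting passed 2970 of 18393 genes as higher and 88 as lower.

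The genes that cyclic AMP is known to induce were positive in early life against control for 15 of 17, with a median of 0.53. They were positive against peripubertal for 14 of 17, with a median of 0.72. Over all genes 9838 of 18388 and 9834 of 18243 were positive in these comparisons, each with a median of 0.03. The induced-gene count was 15 or 16 in the first and 14 to 16 in the second under the other background corrections and scalings. In peripubertal against control 12 of 18 were negative, with a median of -0.22, but 9 were with outlier marks left out before scaling. None passed the test as processed here, and with outlier marks left out before scaling Gem, Bdnf and Nfil3 passed in early life against control. That setting passed 3058 of 18393 genes, 2970 of them as higher, and moved the median of all genes to 0.31. Gem, a small GTPase induced early after stimulation, measured 8.86, 9.68, 10.97 and 10.64 in controls, 11.98, 11.57, 10.87 and 11.67 in early life and 10.13, 9.89, 9.25 and 9.59 in peripubertal animals. The deficient groups did not overlap, and the difference was 1.81 ± 0.46 (adjusted p = 0.115, limma). Vgf, a secreted neuropeptide precursor, went the other way by -1.07 ± 0.32 (adjusted p = 0.141). The mean deviation over the 10 genes of the list with values in all 12 samples was -0.72 to 0.15 in controls, -0.05 to 0.57 in early life and -0.42 to 0.03 in peripubertal animals, and control animal 1 was the lowest of all.

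The palindrome TGACGTCA, to which CREB, CREM and ATF1 bind as dimers, was looked for on both strands in windows of equal length around annotated gene starts (RefSeq, GRCm38.p6). It stood in a promoter of 2.03% of all 27025 genes. Of 44 members 34 had a promoter in that table, and 1 of these, Prkar1a, held the palindrome. Of the cyclic AMP-induced genes 17 of 20 had a promoter, and 2 held it, Dusp1 and Areg, the latter without a kept probe. The shorter TGACG, which lies within the palindrome, stood in a promoter of 47.1% of the members, 76.5% of the induced genes and 23% of all genes, and genes with several starts had more promoters to hold it. Counted per promoter, it stood in 27% of the 74 promoters of members, 58.3% of the 24 of induced genes and 20.8% of all 32851. The windows of Prkar1a, at chr11:109650890-109650917 on the plus strand, and of Dusp1, at chr17:26508598-26508625 on the minus strand, are shown because Prkar1a is the member that holds the palindrome and Dusp1, a phosphatase gene named after its values were seen, had a difference of 1.59 between early life and peripubertal. The capitals mark the palindrome, and a match is a description of the sequence only.
Prkar1a promoter: cgaggcgcatTGACGTCAgcagccgaac
Dusp1 promoter: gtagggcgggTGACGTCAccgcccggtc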

How the data were processed

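RNA of 12 pituitaries was measured on 6 Agilent 2-colour arrays with 44397 features, 1377 of them controls. The deposited scanner files hold the intensity of each spot and channel as Agilent Feature Extraction 11.0.1.1 wrote it, per the file headers. The deposited value table holds relative log2 values made by the authors, whose centring is not given in the sources used here; it served as an alternative. Annotation in the files uses mouse build mm9.

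Here each channel was background-corrected (normexp, offset 50), scaled within arrays (loess) and between channels (Aquantile), all with limma 3.58.1 in R 4.3.3. Spots marked as outliers were then left out, spots of a probe averaged, probes kept if well above background in 4 or more of 12 channels, and each gene represented by its brightest kept probe, giving 19091 genes. Probes were named through accession (27234), symbol (3576) or synonym (563), and 8056 kept the file's name. limma's model had group and dye as terms and array as a random block (correlation 0.342). The p-values are two-sided, adjusted by Benjamini-Hochberg over all genes, with a threshold of 0.05. The median standard error of a difference was 0.19, and the number of arrays limits the precision. The fit was tested on simulated data.

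Members and lists were chosen with earlier results of these data known. Every cyclase, PKA subunit, CREB-family gene and Gnas is named, with the 6 phosphodiesterases of smallest p per comparison and the 2 genes of smallest p per pathway list. Replicate numbers did not pair the samples (correlations of same-numbered samples -0.29 to 0.06). Hormone-cell markers passed the filter for 15 of 15 genes and ovary markers for 2 of 12. The alternatives were other background corrections, scalings, filters, probe rules and models, and leaving out each animal or array.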

Additional observations from a re-analysis of the deposited data

Results flagged for a closer look

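In 4 of 99 gene groups of 4 animals, 1 animal stood apart from the other 3 by Dixon's criterion, which chance alone meets in about 1 in 20 groups. Adcy9 measured 9.98 in early life animal 2 and 10.41 to 10.45 in the rest of its group. Pde7a measured 9.44 in the same animal and 9.17 to 9.20 in the rest. Prkacb measured 13.84 in peripubertal animal 4 against 14.03 to 14.05. Prkar2a measured 9.36 in control animal 1 against 8.89 to 8.97.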

How the results depend on the processing

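Among the cyclic AMP genes, 0 passed in peripubertal against control and between the dyes under every alternative run. In early life against control the count was 0, but 1 where the probes of each gene were averaged (Prkar1b), 4 without the array of early life animals 3 and 4 and 7 with outlier marks left out before scaling (Adcy7, Crem, Pde1b, Pde1c, Pde7a, Pde8a and Prkar2b), a setting chosen after seeing the data. It was 0 to 1 with 1 animal left out. Without the array of early life animals 3 and 4 these were 4 of 33 members, beside 1925 of 16894 genes. With marks left out before scaling they were 7 of 36, beside 3058 of 18393 genes. Between early life and peripubertal the count was 1, but 0 with processed signals, quantile scaling, median centring, no filter, all channels well above background, marks kept, array means, the replicate block, only the 2 groups compared, or without either control or either peripubertal array. It was 2 where probes were averaged (Adcy4 and Prkar1b), 3 without the array of early life animals 3 and 4, and 0 to 2 with 1 animal left out. Without that array these were 3 of 33 members, beside 2377 of 16780 genes. Of single genes, Adcy9 turned to 0.20 in early life against control with marks left out before scaling, for a cause that was not tested, and Pde10a to -0.56 between the deficient groups with the mean of its probes. Averaging sets samples that lack a bright probe's spot at the level of the dimmer probe, as in all early life samples for Prkar1b and in early life animals 1 and 2 for Pde10a. These values, and the counts over all genes with averaged probes, therefore mix levels of different probes and are no results about the genes. Over all genes the 18 calls in early life against control became 35 (processed signals), 4 (median centring), 0 (all channels well above background), 125 (mean of probes), 10 (replicate block), 11 (only the 2 groups) and 3058 (marks left out before scaling, 2970 of them higher). Without an array they were 33 (control 1 and 2), 48 (control 3 and 4), 137 (early life 1 and 2) and 1925 (early life 3 and 4), and without 1 animal 6 to 280. The 24 calls between the deficient groups became 56 (offset 16), 6 (median centring), 1 (all channels), 7 (marks kept), 151 (mean of probes), 44 (every probe), 39 (array means), 6 (replicate block), 66 (only the 2 groups), 46 (uneven patches left out) and 315 (marks left out before scaling). Without an array they were 10 and 120 (control), 161 and 2377 (early life), 62 and 48 (peripubertal), and without 1 animal 6 to 751. The 4 calls in peripubertal against control became 20 (mean of probes), 10 (only the 2 groups), and 23 and 7 (control), 20 (early life 1 and 2), 36 and 32 (peripubertal) without an array. They became 0 with offset 16, processed signals, quantile scaling, median centring, no filter, all channels, marks kept, array means, the replicate block, marks left out before scaling and without the array of early life animals 3 and 4, and 0 to 3 without 1 animal. The 10 calls between the dyes became 3 (offset 16), 5 (processed signals), 4 (median centring), 16 (no filter), 16 (all channels), 36 (marks kept) and 3 (mean of probes). Median centring moved the median difference of all genes to 0.17 and 0.14 for the deficient groups against control, and marks left out before scaling to 0.31 and 0.13. Dim signals limit Adcy3 and Adcy8 most. Adcy1, Adcy4, Creb1, Pde1c, Pde5a and Pde11a were well above background in 3 of 4 early life channels. Missing early life arrays limit Adcy5, Adcy6, Crem and Prkar1a.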

Other observations

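A pair of probes left out for low signal were bright on 1 array each. An Atf1 probe, A_55_P2071472, measured 11.54 and 10.25 in control animals 3 and 4 and 6.68 to 7.10 in the other 10 animals. A Pde6h probe, A_55_P2001518, measured 10.80 and 10.36 in early life animals 3 and 4 and 6.51 to 6.69 in the others.

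The 4 control columns of the deposited value table, which matched no scanned channel, had high values for genes of ovarian steroid synthesis and low values for pituitary hormones. On its relative log2 scale Cyp11a1 was 7.86 to 9.58 and Hsd3b1 8.23 to 9.79 in those columns. Prl was -4.12 to -2.01 there and 8.93 to 10.40 in the columns of the deficient groups, and Pomc was 0.03 to 1.57 against 9.27 to 10.21. The filter that the hormone-cell markers passed for 15 of 15 genes counted the scanned channels of all groups together. It therefore does not describe the scanned control channels alone. The hormone-cell score, made as the other marker scores, was -0.12 to 0.10 in the scanned control channels. It was -0.11 to 0.17 in early life and -0.27 to 0.16 in peripubertal animals.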
